A study of Mus musculus with 6 samples.

Results

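A set of 10 genes of the vessel wall was followed across 6 mouse heart samples. They are Acta2, Tagln, Myh11, Cnn1, Pdgfrb, Rgs5, Cspg4, Abcc9, Notch3 and Des, known as markers of smooth muscle cells and pericytes. They were chosen by name, with earlier results of these data known, and each was read from the 1 probe set annotated to that symbol alone, out of 19938 genes with such a probe set. RNA of 1 heart sample was put on each of 6 Affymetrix Mouse Gene 1.0 ST arrays, and all animals were 6 months old (postnatal day 180). The arrays fall into 5 groups. WT is 1 array. Id control is 2 arrays of different genotype. Id control 1 is Id1F/+Id3-/-, with 1 floxed and 1 wild-type Id1 allele, no working Id3 and no Cre in its label. Id control 2 is Tie2Cre+Id1-/-Id3+/-, with no Id1 in any cell and 1 working Id3 allele. Id cKO is 1 array of Tie2Cre+Id1F/-Id3-/-, where Id3 is missing from every cell and the remaining Id1 allele can be removed by Tie2Cre. The last 2 arrays are Id cKO hearts, 1 treated with mouse recombinant IGFBP3 and 1 untreated as its control. Their labels say conditional KO without spelling out the alleles. Tie2Cre is a Cre transgene driven by the Tie2 promoter, which is active in endothelial and blood cells. WT is thus the one group with all Id1 and Id3 alleles intact, and both Id controls lack alleles outside the endothelium as well. According to the series' design samples were run at least in duplicate, but most groups here hold 1 array, and how many animals gave each sample is not stated. The p-values and standard errors below therefore reflect just the scatter among these arrays. That scatter is the difference between the 2 Id control arrays, and part of it may be technical. These 2 arrays also differ in genotype and, as given below, in date code and atrial muscle RNA, so they are not replicates of like samples.

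Mural cells wrap the outside of the endothelial tube. Smooth muscle cells surround arteries and veins and contract by an actin and myosin machinery, whose genes are switched on by serum response factor with its partner myocardin at CArG boxes. Pericytes sit on capillaries, carry little of that machinery, and are recruited by endothelial PDGF-B acting on the receptor PDGFRB. Notch ligands on the endothelium act on NOTCH3 of both cell types. Id1 and Id3 encode helix-loop-helix proteins that hold E proteins away from E boxes in DNA.

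The deposited values are log2 levels. Their medians lay between 5.73 and 5.83 on the first 4 arrays (WT, both Id controls and Id cKO), and on the incubated pair, as the design text calls the treated and untreated arrays, at 4.45 and 4.51. Levels are therefore compared as deposited among the first 4 arrays and within the incubated pair, and across these sets only after quantile normalization, which gives all arrays the same distribution. As deposited Id1 stood at 8.14 in WT, 8.11 in Id control 1, 6.41 in Id control 2 and 6.48 in Id cKO, and Id3 at 7.18, 5.02, 7.32 and 4.69, so on these 4 arrays each was low where its label removes it. After quantile normalization Id1 was at 6.50 in the treated and 6.51 in the untreated heart against 7.79 in WT, and Id3 at 5.03 and 4.74 against 6.81. The 13 ventricular muscle markers of the labelled tissue averaged 12.29 to 12.94 after quantile normalization, none of them under the floor on every array. Xist, which is transcribed from the silenced X of female cells, lay between 8.15 and 8.62 on the Id control and Id cKO arrays and at 4.04 or less in WT and the incubated pair, so WT and the incubated pair carried a male pattern and the other 3 arrays a female one. Sex and genotype cannot be told apart where WT is compared with Id control or Id cKO. Id control 1 has a date code of its own, and the other arrays of the first 4 carry a common code. A whole heart mixes many cell types, and fewer cells of a type cannot be told apart from less RNA per cell.

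The contractile genes Acta2, Tagln and Myh11 were higher in both Id control hearts than in WT and in Id cKO. The 4 contractile members had a median difference of 0.93 between Id control and WT, of -0.90 between Id cKO and Id control, and of 0.27 between Id cKO and WT. Over all genes compared these medians were 0.05, -0.03 and 0.00. Markers of other cells also differed between Id control and WT. Higher were 15 of 16 fibroblast markers (median 0.645), 8 of 9 elastic wall genes (0.479), 8 of 9 myofibroblast markers (0.669) and 7 of 7 atrial markers (1.56), and lower were 7 of 8 red cell and platelet markers (-0.647). Their part in the contractile difference was not tested. Genes entered a comparison when either group averaged 6 or more in log2 units, a floor that all 10 members met in this way among the first 4 arrays. A gene under the floor in one group entered only through the other, so its direction was fixed. Cnn1 (5.85 in WT) could thus only be above WT in the contractile medians. Among the markers Myl7 (5.28 in WT) and Thbs4 (5.895 in WT) could only be higher in Id control. Slc4a1 (5.96) and Gp9 (5.88), under the floor in Id control, could only be lower there.

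Acta2 encodes smooth muscle alpha-actin, the main actin of vascular smooth muscle and also a marker of activated fibroblasts. As deposited it was at 9.81 in WT, 11.10 in Id control 1, 11.33 in Id control 2 and 10.09 in Id cKO, and at 9.50 in the treated and 9.19 in the untreated heart of the incubated pair. Both Id control arrays lay above the other 2 arrays of their set without overlap. Between Id control and WT the difference was 1.40 ± 0.17 (limma SE), 2.64-fold, and Acta2 was the only member at least 2-fold apart on both Id control arrays. Among all 11407 genes compared, 0.105% were 2-fold higher in this way. Between Id cKO and Id control it was -1.12 ± 0.17 (limma SE), measured as -1.002 from Id control 1 and -1.23 from Id control 2. It was again the only member at least 2-fold apart from both arrays, where 0.424% of 11310 genes were 2-fold lower and 1.12% were 2-fold apart in either direction. Against Id control 1 the value is at the 2-fold limit, and after cyclic loess normalization, where the mean difference was -1.07, Acta2 no longer passed it. In limma, fitted across all genes with Benjamini-Hochberg adjustment, Acta2 had an adjusted p of 0.207 between Id cKO and Id control and 0.629 between Id control and WT. The 2 Id control arrays alone give limma its single residual degree of freedom, and every single-array group borrows its spread from them.

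Tagln encodes transgelin, an actin-binding protein of smooth muscle. It was at 7.32 in WT, 8.00 in Id control 1, 8.93 in Id control 2 and 7.58 in Id cKO, so the Id control arrays were again the highest but lay 0.94 from each other. Myh11 encodes the smooth muscle myosin heavy chain, the motor of this machinery. WT stood at 7.47, Id control 1 at 8.03, Id control 2 at 8.33 and Id cKO at 7.27, so both Id control arrays lay above the others. Its difference between Id cKO and Id control was -0.91 ± 0.19 (limma SE, adjusted p = 0.236), past 1.5-fold against both arrays, as was Acta2, where 2.37% of genes were lower by that much. Cnn1 encodes calponin, which binds actin and slows the myosin motor. It was at 5.85 in WT, 6.01 in Id control 1, 7.00 in Id control 2 and 6.13 in Id cKO, close to the floor on every array but one. Only Id control 2 stood apart for Cnn1, and Id cKO lay above Id control 1 by 0.12. Both Id control arrays lay above WT and Id cKO for Acta2, Tagln and Myh11, and over all genes 24.2% did so.

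**Figure D1:**
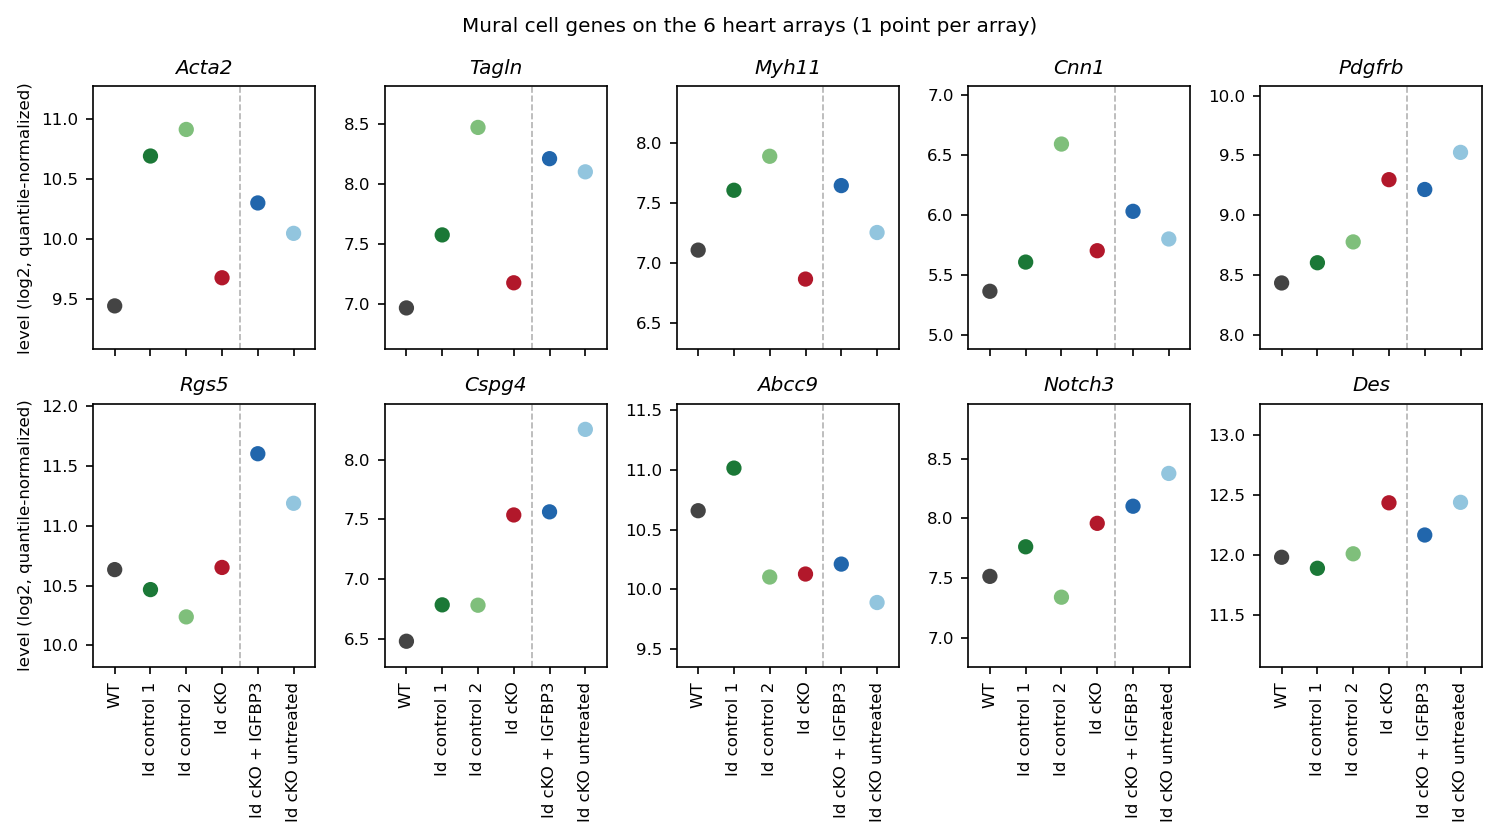
Level of each gene on the 6 arrays on a log2 scale after quantile normalization, 1 point per array, with a dashed line between the first 4 arrays and the incubated pair and the same span of 2.2 log2 units on each vertical axis. For Acta2, Tagln and Myh11 both Id control points lie above WT and Id cKO, and for Pdgfrb, Cspg4, Notch3 and Des the 3 points of the Id cKO genotype lie above the 3 others, while for Rgs5 they do so by 0.018.

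The promoters of Acta2, the member furthest apart between Id control and the other groups, and of Cnn1, the other contractile member with a window, are shown to set their motifs beside their levels. RefSeq windows of the build GRCm38.p6, from 250 bases before to 50 after a gene's start, were matched by symbol for 7 of the 10 members (Acta2, Cnn1, Rgs5, Cspg4, Abcc9, Notch3 and Des), and Tagln, Myh11 and Pdgfrb had no entry in the table used. Those of Acta2 (chr19:34255324-34255623, minus strand) and Cnn1 (chr9:22099003-22099302, plus strand) follow, 5′ to 3′, with CArG-like boxes and E boxes in capitals. An E box was searched as CANNTG on both strands, and a CArG-like box as a CArG box with 1 letter of its 6-letter core other than A or T.
Acta2: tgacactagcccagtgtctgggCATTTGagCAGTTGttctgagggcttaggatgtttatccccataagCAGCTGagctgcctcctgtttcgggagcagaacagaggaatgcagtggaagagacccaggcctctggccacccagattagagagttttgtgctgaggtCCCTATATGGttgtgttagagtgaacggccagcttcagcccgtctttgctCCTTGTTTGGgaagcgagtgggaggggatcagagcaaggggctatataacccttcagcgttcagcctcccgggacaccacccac
Cnn1: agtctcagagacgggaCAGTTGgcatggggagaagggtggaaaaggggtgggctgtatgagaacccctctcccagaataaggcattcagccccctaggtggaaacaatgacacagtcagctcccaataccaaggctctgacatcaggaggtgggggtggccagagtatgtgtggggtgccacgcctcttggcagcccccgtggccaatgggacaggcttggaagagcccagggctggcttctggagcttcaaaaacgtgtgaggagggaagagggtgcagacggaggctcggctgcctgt
The Acta2 window held 2 CArG-like boxes, CCCTATATGG from position -84 to -75 and CCTTGTTTGG from -34 to -25, counted from the start. It also held 3 E boxes, CATTTG from -228, CAGTTG from -220 and CAGCTG from -182. The Cnn1 window held 1 E box, CAGTTG from -234, and no box of either CArG kind. Among 32851 windows of this length, 1.63% held an exact CArG box, 8.5% a CArG-like box, 72.3% an E box and 17.6% at least 3 E boxes. None of the 7 member windows held an exact CArG box. Of 25 other contractile genes 23 had windows, some of them 2, and 5 genes held an exact box in at least 1 window. The CArG-like search was added after the exact one had given no match among the members.

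The mural receptors and surface genes ran differently. Pdgfrb, Cspg4 and Notch3 were highest in Id cKO among the first 4 arrays, as were Rgs5 by a small margin and Des, so 5 of the 10 members had Id cKO above the other 3 arrays, against 26.9% of all genes, and Myh11 and Abcc9 had it below the other 3, against 31.1%. None of them reached 2-fold against both Id controls, and none passed limma.

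Pdgfrb encodes the PDGF-B receptor by which mural cells are recruited. It was at 8.78 in WT, 9.02 in Id control 1, 9.23 in Id control 2 and 9.70 in Id cKO, with the Id controls between WT and Id cKO. Id cKO was 0.58 ± 0.16 (limma SE) above Id control, adjusted p = 0.304, and 0.92 above WT. Notch3 encodes the Notch receptor of mural cells. Its levels were 7.87 in WT, 8.19 in Id control 1, 7.78 in Id control 2 and 8.34 in Id cKO, so that Id cKO and Id control 1 were 0.15 apart and the Id controls 0.41. That difference between Id cKO and Id control 1 is smaller than the spread of the Id control pair.

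Cspg4 encodes the NG2 proteoglycan on the surface of pericytes and of young smooth muscle cells. Its levels were 6.86 in WT, 7.19 and 7.20 in Id control 1 and 2, and 7.93 in Id cKO. The Id control arrays were nearly equal and Id cKO lay 0.74 ± 0.14 (limma SE) above them, adjusted p = 0.232, past 1.5-fold from both, as were 2.63% of all genes in this direction. Against WT it was the only member past 2-fold, at 1.07 (2.09-fold), where 2.2% of 11478 genes were 2-fold higher and 3.17% were 2-fold apart in either direction. With the floor at 8 Cspg4 was not compared.

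The Cspg4 (chr9:56864854-56865153, plus strand) and Notch3 (chr17:32166841-32167140, minus strand) windows are shown beside those of the contractile genes as examples of members highest in Id cKO. They held no E box and no CArG or CArG-like box, so no letters are in capitals.
Cspg4: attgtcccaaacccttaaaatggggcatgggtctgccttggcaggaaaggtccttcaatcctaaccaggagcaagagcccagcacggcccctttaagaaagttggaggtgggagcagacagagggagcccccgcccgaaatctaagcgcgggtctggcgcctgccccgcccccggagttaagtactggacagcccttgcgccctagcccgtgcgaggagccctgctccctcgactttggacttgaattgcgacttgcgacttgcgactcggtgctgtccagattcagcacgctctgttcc
Notch3: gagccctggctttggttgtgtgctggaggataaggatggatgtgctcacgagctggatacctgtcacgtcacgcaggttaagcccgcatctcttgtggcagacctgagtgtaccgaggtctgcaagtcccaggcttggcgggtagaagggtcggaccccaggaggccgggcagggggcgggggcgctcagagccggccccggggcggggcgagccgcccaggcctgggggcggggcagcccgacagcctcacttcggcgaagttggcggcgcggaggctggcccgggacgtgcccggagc
The windows of Rgs5 and Des, which were also highest in Id cKO, did hold E boxes, 1 in Rgs5 and 2 in Des. That of Abcc9, which was not highest there, held 1.

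Rgs5 encodes a regulator of G protein signalling that is abundant in pericytes. Its levels were 11.02 in WT, 10.89 in Id control 1, 10.67 in Id control 2 and 11.03 in Id cKO. The 4 arrays lay within 0.36 of each other, and WT and Id cKO were 0.01 apart. Abcc9 encodes SUR2, the regulatory subunit of the ATP-sensitive potassium channels of mural cells and of heart muscle. It was at 11.04 in WT, 11.40 in Id control 1, 10.56 in Id control 2 and 10.53 in Id cKO. The Id controls were 0.84 apart, and Id cKO matched Id control 2 to within 0.02, so the mean difference between Id cKO and Id control (-0.44 ± 0.38, limma SE, adjusted p = 0.663) was smaller than the spread of the pair. Des encodes desmin, the intermediate filament of smooth muscle, pericytes and heart muscle. Its level was 12.31 in WT, 12.26 in Id control 1, 12.36 in Id control 2 and 12.70 in Id cKO, which was 0.39 ± 0.14 (limma SE) above Id control, adjusted p = 0.367, and 0.39 above WT. Heart muscle makes most of a heart's RNA, and the part of muscle cells in the Abcc9 and Des levels was not tested.

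**Figure D2:**
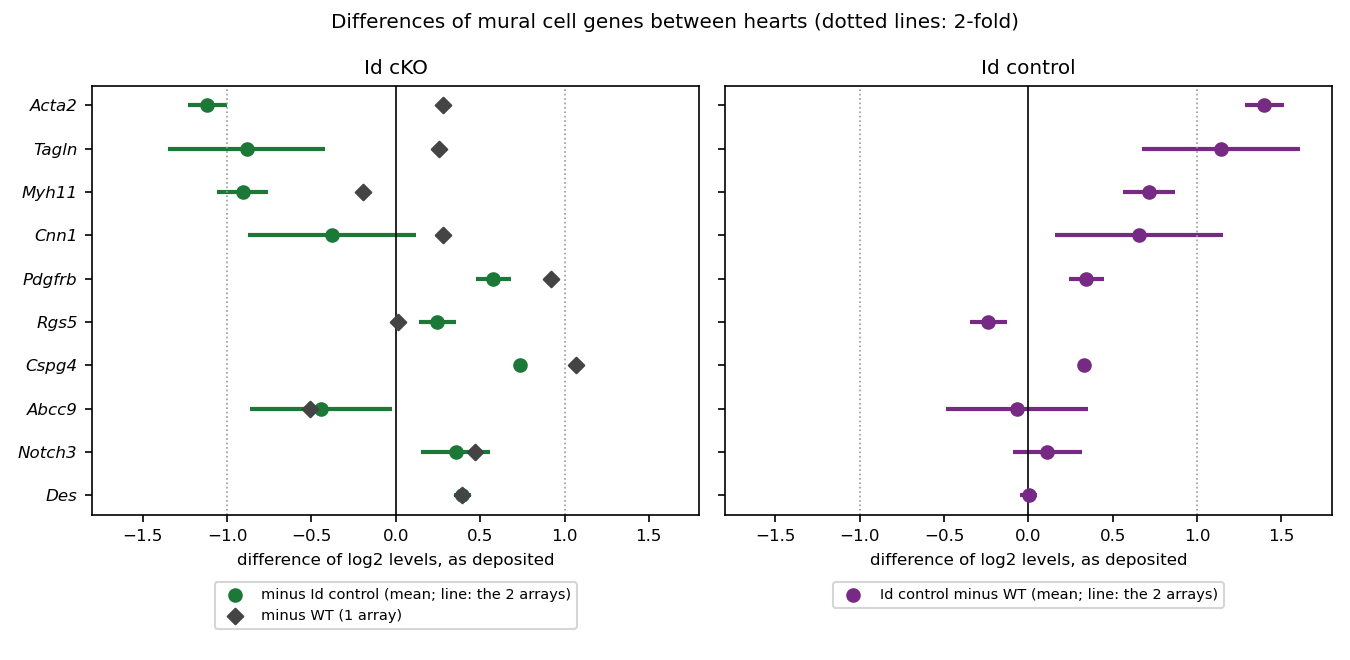
Differences of deposited log2 levels for each gene, with Id cKO minus Id control (green, mean, with a line from one Id control array to the other) and Id cKO minus WT (diamonds, 1 array each) on the left, and Id control minus WT (purple) on the right; dotted lines mark 2-fold. Acta2 lies past the 2-fold line on both sides, at -1.12 and 1.40, and Cspg4 lies at 0.74 and 1.07 on the left.

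Between Id cKO and Id control 5 of the 10 members had a difference above 0, against 45.3% of all genes, 0 were 2-fold higher (0.698% of all genes) and 1 was 1.5-fold higher. Between Id control and WT 8 had one above 0 (60.1%), 1 was 2-fold apart (0.202% either way, 0.0964% lower) and Acta2 and Tagln were 1.5-fold apart (1.37%). Between Id cKO and WT 8 were above 0 (50.8%), and Pdgfrb and Cspg4 were 1.5-fold higher (6.94%) and 0 that much lower (3.35%). These counts share arrays between comparisons, and Cnn1, at 5.85 in WT, could only be above 0 in both comparisons with WT. Over all 10 members, 0 passed an adjusted p of 0.05 in limma between Id cKO and Id control, with 5 at an unadjusted p under 0.05 (Acta2, Myh11, Pdgfrb, Cspg4 and Des), against 13.5% of all genes. Between Id control and WT 0 passed, with 3 at an unadjusted p under 0.05 (Acta2, Tagln and Myh11), against 7.26% of all genes. Between Id cKO and WT 0 passed (0.0348% of all genes did) and 2 were at an unadjusted p under 0.05 (Pdgfrb and Cspg4), against 13.1%. Over the settings tried, which include limma with a mean-variance trend, the smallest adjusted p of any member was 0.135, 0.41 and 0.121 in these comparisons. The difference of the contractile mean from the mural mean (Pdgfrb, Rgs5, Cspg4, Abcc9 and Notch3), taken within each array and relative to WT, differed between arrays. As deposited it was 1.32 in Id control 2, 0.45 in Id control 1 and -0.24 in Id cKO. This measure was chosen after the values had been seen and has no test.

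The 2 Id control arrays differed from each other in the same genes. All 4 contractile members were higher in Id control 2, with Cnn1 0.99 and Tagln 0.94 apart and Acta2 0.23 apart, and none was 2-fold apart as deposited, as were 1.21% of 11244 genes, though Cnn1 passed 2-fold after median centring (-1.009) and cyclic loess (-1.016). Tagln and Cnn1 were 1.5-fold lower in Id control 1 (3.45% of genes) and Abcc9 1.5-fold higher (4.79% lay apart either way). Id control 2 also held atrial muscle RNA, with the atrial light chain genes Myl7 at 12.27 against 5.31 and Myl4 at 12.97 against 6.83. All 8 atrial markers compared were lower in Id control 1, with a mean level after quantile normalization of 6.93 against 10.05. All 16 fibroblast markers (8.15 against 8.91) and all 9 genes of the elastic vessel wall (7.52 against 8.44) were lower there too. So were all 9 myofibroblast markers compared (median -0.988, 3 past 2-fold), all 5 adipocyte markers compared (-1.43, 4 past 2-fold) and 7 of 9 epicardial markers (-0.645). A gene under the floor in Id control 1 entered only through Id control 2, so it could only be lower in Id control 1. Among such genes were Adipoq (4.02), Plin1 (5.47), Cidec (5.78) and Retn (5.44), the 4 adipocyte markers past 2-fold. Msln, Upk1b, Krt19 and Lrrn4 of the epicardial list, Myl7 and Sln of the atrial list, and Lox were others. Bmp10 of the atrial list and Lep and Ucp1 of the adipocyte list stayed under the floor on every array. The part of these marker lists' cells in the higher Tagln and Cnn1 of Id control 2 was not tested. Taken alone, Id control 1 was above WT by 1.28 in Acta2, 0.68 in Tagln and 0.56 in Myh11. Its mean atrial level was 6.93 against 6.84 in WT and its mean fibroblast level 8.15 against 7.81, with the fibroblast genes Col14a1 1.54 and Lum 1.37 above WT.

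**Figure D3:**
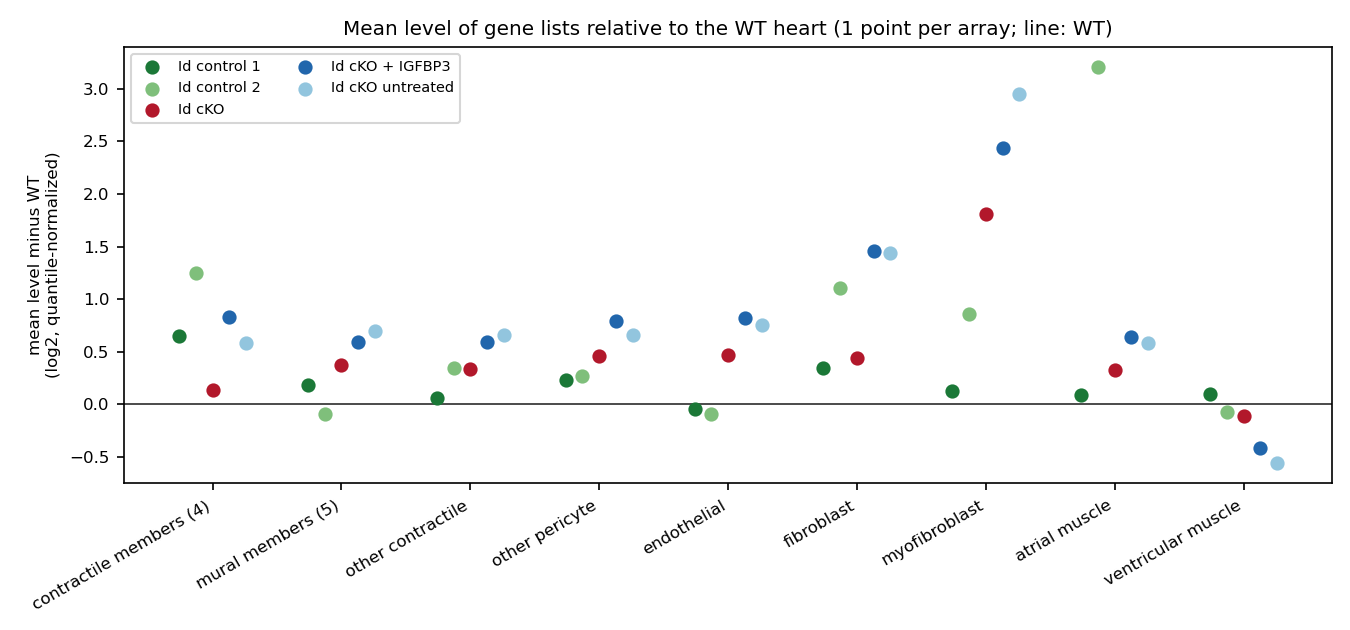
Mean level of each gene list on each array minus that of WT, in log2 units after quantile normalization, 1 point per array. The contractile members were highest in Id control 2 (1.25 above WT), the atrial list stood apart in Id control 2 alone, and the myofibroblast list was highest in the 3 hearts of the Id cKO genotype.

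In the incubated pair the contractile members Acta2, Tagln and Myh11 were higher with IGFBP3 and Pdgfrb, Cspg4 and Notch3 lower, none by 2-fold and none past limma. The wider contractile list did not lean one way, with 11 of 20 genes higher and 9 lower (median 0.028, against 0.048 over all genes) and Tagln2 at -0.785. Of 7474 genes compared, 0.495% were 2-fold higher, 0.803% lower and 1.3% either. Of the 9 members compared 5 were higher, against 54.3% of all genes. Acta2 was 0.31 higher in the treated heart, Myh11 0.43 (6.86 against 6.43) and Tagln 0.16 (7.43 against 7.27). Cnn1 was 0.21 higher (5.20 against 4.99) but under the floor on both arrays. Cspg4 was the member furthest apart, 0.64 lower in the treated heart (6.78 against 7.42), and the only one past 1.5-fold, as were 6.74% of all genes in this direction and 14.4% in either. Pdgfrb (8.42 against 8.65), Notch3 (7.33 against 7.54) and Des (11.55 against 11.85) were lower as well. Rgs5 was higher by 0.54 (10.96 against 10.42) and Abcc9 by 0.39 (9.40 against 9.01). Each is a difference of 1 array from 1 array with no replicate check. In the treated heart 8 of 9 myofibroblast markers (median -0.49) and 8 of 9 elastic wall genes (-0.454) were lower, and 4 of 4 red cell and platelet markers (0.572) and 10 of 13 ventricular markers (0.17) were higher. Their part in the members' differences was not tested. In limma, which lends these arrays the spread of the Id control pair, 0 of 9 members passed, 2 were at an unadjusted p under 0.05 (Rgs5 and Cspg4) against 23% of all genes, and adjusted p over all settings ranged from 0.177 to 0.899.

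**Figure D4:**
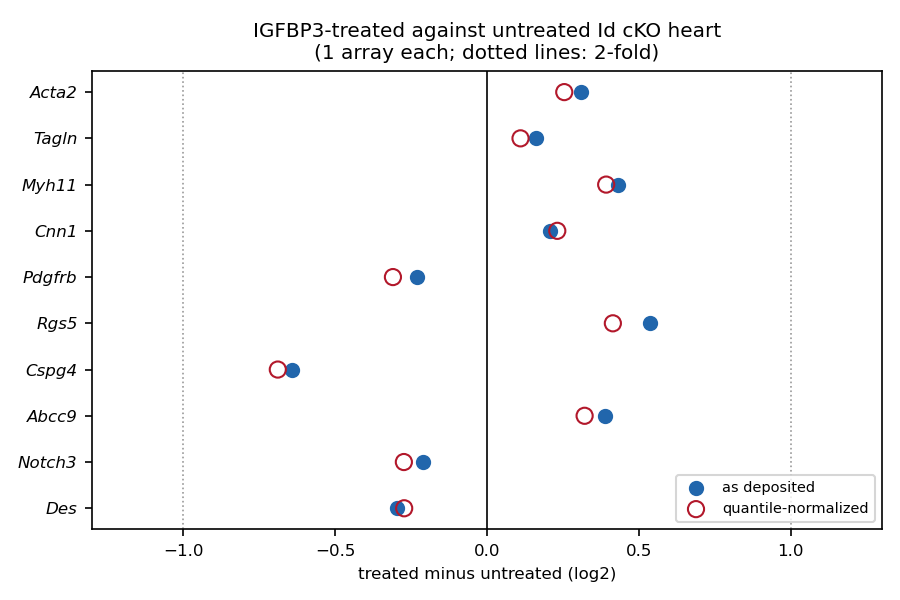
Treated minus untreated log2 level of each gene in the incubated pair, as deposited (filled) and after quantile normalization (open), 1 array each, with dotted lines at 2-fold. Acta2, Tagln, Myh11, Cnn1, Rgs5 and Abcc9 lie above 0 and Pdgfrb, Cspg4, Notch3 and Des below it on both scales, all within the 2-fold lines.

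After quantile normalization the 3 hearts of the Id cKO genotype could be set beside the 3 others. Pdgfrb, Cspg4, Notch3, Des and Rgs5 were higher in all 3 Id cKO genotype hearts than in any other, 5 of the 9 members compared, where 14% of all genes lay above, 17.8% below and 31.8% lay apart in either direction. Cspg4 had the widest gap, with Id cKO genotype hearts at 7.54, 7.56 and 8.25 against 6.48, 6.79 and 6.78 in WT and Id control 1 and 2. Pdgfrb was at 9.30, 9.21 and 9.53 in Id cKO, treated and untreated against at most 8.78 elsewhere. Notch3 was between 7.96 and 8.38 against at most 7.76, and Des between 12.17 and 12.44 against at most 12.01. The gap of Rgs5 was 0.018, from WT at 10.63 to Id cKO at 10.65, with the treated and untreated hearts at 11.60 and 11.19. Rgs5 was thus high on the incubated arrays and not on the Id cKO array of the first set. These 5 members kept their separation under median centring and cyclic loess.

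The 3 contractile members compared did not separate by genotype, whereas 12 of 23 genes of the wider contractile list lay above all others in the 3 Id cKO genotype hearts and 1 lay below, against 14% and 17.8% of all genes. Acta2 was at 10.30 and 10.05 on the incubated pair, between WT (9.44) and Id cKO (9.68) on one side and Id control 1 (10.69) and Id control 2 (10.92) on the other. Tagln was at 8.21 and 8.10 on the incubated pair, above WT (6.97), Id cKO (7.18) and Id control 1 (7.58). Myh11 was at 7.65 and 7.25, inside the range of the other arrays. The untreated heart and Id cKO differed by 0.37 in Acta2, 0.93 in Tagln, 0.39 in Myh11 and 0.72 in Cspg4. Between these 2 arrays of one labelled genotype but different sex pattern and array set, 8.42% of 10241 genes were 2-fold apart, and the median absolute difference was 0.35. Where the incubated pair is set beside the first 4 arrays, array set and incubation cannot be told apart.

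Other genes of the contractile machinery did not all go with Acta2. Set against Id control, Id cKO was higher for 15 and lower for 9 of the 24 genes compared (median 0.14) and none passed limma or was 2-fold apart. Cald1 (caldesmon, 0.72), Cnn3 (0.60) and Myl6 (0.55), which non-muscle cells also express, were the furthest up, and Mustn1 (-0.43) and Lmod1, a smooth muscle leiomodin (-0.40), the furthest down. Lmod1 was at 5.62 in Id cKO and 6.02 in Id control, so it met the floor only in Id control and could only be lower. Against WT, 17 of 24 were higher in Id control (median 0.16), led by Myl9, the smooth muscle regulatory light chain (1.51), Tpm2 (1.00) and Itga8 (0.94). Itga8 (5.975 in WT) and Actg2 (5.98 in WT) met the floor only in Id control and could only be higher. Myl9 was at 7.59 in WT, 8.19 in Id control 1, 10.01 in Id control 2 and 9.32 in Id cKO, so its mean rested on Id control 2, and unlike Acta2 it stayed high in Id cKO, 1.73 above WT. Among the transcription factors of smooth muscle, Myocd, which encodes myocardin, read 9.02 in WT, 9.52 and 9.29 on the Id control arrays, and 8.99 in Id cKO, a difference of -0.41 between Id cKO and Id control, and Srf lay within 0.24 on these arrays. Foxs1, a forkhead factor of pericytes, was 0.775 above Id control. Of 14 genes of that list 6 were higher and 8 lower, and none passed limma.

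On the pericyte list beyond the members, Id cKO exceeded Id control for 14 of 21 genes compared and lay below it for 7 (median 0.17), where 45.3% of all genes were higher. Of these, 2 were 2-fold higher and 1 was 2-fold lower than both Id control arrays, against 0.698% and 0.424% of all genes. Mcam, the adhesion molecule of mural and endothelial cells, read 8.02 in WT, 8.42 and 8.47 on the Id control arrays, and 9.95 in Id cKO (1.503 above Id control). Cox4i2, a cytochrome oxidase subunit found in pericytes, was at 7.41, 7.22, 7.94 and 10.07 in the same order. Angpt1, which encodes a TIE2 ligand, read 7.99 in WT, 8.75 and 8.45 on the Id control arrays, and 6.88 in Id cKO, 1.72 below Id control. Which cells of the heart gave the Angpt1 RNA was not tested. After quantile normalization all 3 Id cKO genotype hearts lay above the others for Mcam and Cox4i2 and below them for Angpt1. Of the 21 genes of this list compared, 11 lay above in this way and 1 below, against 14% and 17.8% of all genes. None of the list passed limma.

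Endothelial ligands of the 2 mural receptors include PDGF-B and Notch ligands. Pdgfb read 8.89 in WT, 8.78 and 8.57 on the Id control arrays, and 9.25 in Id cKO, 0.57 above Id control. Of the other PDGF genes, Pdgfc was 0.65 above Id control and 1.20 above WT. Pdgfra, the fibroblast PDGF receptor, was 0.93 below Id control. It was 0.80 lower in Id control 1 than in Id control 2. After quantile normalization Pdgfb, Pdgfc and Pdgfra did not separate the Id cKO genotype hearts from the others. Pdgfc read 7.06 in Id cKO, 5.98 with IGFBP3 and 6.31 without. It read 5.82 in WT and 6.33 and 6.49 on the Id control arrays. Pdgfra read 7.48, 9.04 and 8.65 against 7.92, 7.97 and 8.75 in the same order. Pdgfd in Id cKO differed from Id control by 0.26 and from WT by -0.40. On the Notch list Id cKO exceeded Id control for 12 of 16 genes compared (median 0.23). These were led by the endothelial genes Dll4 (1.43) and Notch4 (1.13) and by Nrarp, a Notch target (0.79). The other 4 were lower, among them the ligand gene Jag1 (-0.08). Dll4 was itself 0.88 higher in Id control 1 than in Id control 2. None of the 6 PDGF genes or 16 Notch genes passed limma. The partners of SUR2 split. Kcnj8, the pore subunit of mural cells, was 0.64 above Id control in Id cKO, and Kcnj11, the pore subunit of heart muscle, was 0.53 below, neither past limma. Beside Rgs5, 8 RGS genes were compared, 3 of them above Id control in Id cKO and 5 below. Rgs2, which limits signalling of contractile receptors, was 1.27 lower and past 2-fold from both arrays.

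Markers of other cells differed on these arrays too. Between Id cKO and Id control 12 of 12 myofibroblast markers were higher (median 1.21), while Acta2, which these cells also express, was 1.12 lower. A marker under the floor in Id control entered only through Id cKO and could only be higher. Lox (5.97 in Id control) was such a marker. Of the 12, 9 met the floor in Id control or WT and the rest did so only in Id cKO. The mean level of the myofibroblast markers after quantile normalization was 7.63, 8.25 and 8.76 in the Id cKO, treated and untreated hearts. It was 5.81 in WT and 5.94 and 6.68 in the Id controls, and no gene of the list stayed under the floor on every array. Endothelial markers exceeded Id control in Id cKO for 14 of 16 (median 0.52), with mean levels of 8.96 to 9.32 in the Id cKO genotype hearts and 8.40 to 8.49 in the others. The part of endothelial, fibroblast and myofibroblast RNA in the higher Pdgfrb, Cspg4 and Notch3 of these hearts was not tested.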

How the data were processed

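The 6 heart arrays hold 35557 probe sets each. The authors deposited their levels on the log2 scale, made with RMA in Expression Console per the submitters' processing notes, which list no version. GEO's platform annotation gave the names: 21789 carried 1 symbol, 1621 several and 12147 none, and the last 2 kinds named no gene. Of 19938 genes, 999 had several probe sets, and the one with the highest mean stood for the gene. Of their symbols 19856 were found in RefSeq's gene table through the Entrez identifier. The members and gene lists were chosen with earlier results of these data known.

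A single limma model (version 3.58.1, R 4.3.3) covered all 6 arrays and 5 groups, on genes with a group mean of 6 or more in the contrast. P-values were adjusted by Benjamini-Hochberg over every such gene, 0.05 being the limit, and the code was checked on simulated data. Genes were also counted at 2-fold, from both Id control arrays where these were compared. Medians of lists are descriptions beside the same over all genes. Quantile, median and cyclic loess scaling, other floors, a 1.5-fold limit, mean probe sets, a mean-variance trend and leaving out each Id control array were tried. Named genes are the 10 members, from each list up to 4 genes furthest apart and those past 2-fold, and the 5 nearest profiles of Acta2, Myh11 and Rgs5. Lmod1, the other actin genes and the CArG-like boxes were added after their values were seen. The number of arrays limits the precision.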

Additional observations from a re-analysis of the deposited data

How the results depend on the processing

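No alternative turned the direction of a member that was 2-fold apart, and of 365 member values under alternatives 8 changed sign, none of a member past 2-fold (Cnn1 against Id control, Des, Abcc9 and Notch3 between Id control and WT, and Cspg4 between the Id controls). With 1 array in most groups the alternatives test the processing and not the hearts.

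Counts of genes by size followed the limits. With a floor of 8 they were 73 for Id cKO against Id control, 12 for Id control against WT, 223 for Id cKO against WT, 39 for the incubated pair and 76 for the Id control pair, from 127, 23, 364, 97 and 136. At 1.5-fold they were 565, 156, 1181, 1076 and 539. For the incubated pair the count was 146 after cyclic loess and 178 with no floor. Genes separating the 3 Id cKO genotype hearts numbered 3216, and 5111 with no floor, 1422 with a floor of 8 and 6562 on the deposited values without the incubated pair, where fewer arrays must separate; that alternative was chosen after seeing the data. Median centring gave 17 higher and 7 lower for Id control against WT, from 12 and 11, with a median of all genes of 0.17 in place of 0.05, and 80 higher and 44 lower for the incubated pair, from 37 and 60. The cause was not tested.

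The median of the 5 mural members with a floor of 8, which leaves fewer of them, was -0.067 for Id control against WT (main value 0.11), 0.24 for Id cKO against WT (0.47) and 0.39 for the incubated pair (-0.21). For the separation by genotype it was 0.70, and 0.39 without the incubated pair.

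Leaving out 1 Id control array at a time gave 286 to 300 genes for Id cKO against Id control and 57 to 203 for Id control against WT, since 1 array in place of both must pass, and 3813 to 4168 separated genes. The contractile median ranged from -1.15 to -0.59 for Id cKO against Id control and from 0.62 to 1.33 for Id control against WT, and the mural median from 0.15 to 0.475 and from -0.093 to 0.315. Without Id control replicate 2 Tagln was 0.42 below and Cnn1 0.12 above Id control in Id cKO, and without replicate 1 they were 1.35 and 0.87 below. No paired analysis was possible because every group but Id control is 1 array and the 2 Id control arrays differ in genotype.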

Other observations

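Other genes that set vessel tone showed 1 large difference. Ednrb, the endothelin B receptor of endothelium and some smooth muscle, read 7.43 in WT, 7.57 and 8.05 on the Id control arrays, and 9.86 in Id cKO. That is 2.05 above Id control and past 2-fold from both arrays. All 3 Id cKO genotype hearts lay above the others for Ednrb after quantile normalization. Of 11 vessel tone genes compared there, 2 lay above and 2 below, against 14% and 17.8% of all genes. Agtr1a, an angiotensin receptor, was 0.98 below Id control. Of 12 compared genes of this list 5 were higher and 7 lower (median -0.11), and none passed limma. Among 9 partners of desmin, Vim (1.102) and Nes (1.05) exceeded WT 2-fold in Id cKO, and Nes and Vim were 0.62 and 0.45 above Id control.

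Other actin genes did not follow Acta2. Acta1, the skeletal actin that heart muscle re-expresses under load, was at 10.86 in WT, 11.03 in Id control 1, 13.05 in Id control 2 and 13.15 in Id cKO, so that it was 1.12 above Id control in Id cKO where Acta2 was 1.12 below. Actc1, the cardiac actin, lay between 13.97 and 14.14 on these 4 arrays. Actg2, the actin of visceral smooth muscle, was at 5.98, 6.08, 6.69 and 6.17. Actins are close in sequence, and how far their probes share signal was not tested.

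Profiles over the 6 quantile-normalized arrays, each centred on its own mean, were ranked by root mean square difference among 10410 genes, as a description with no test. Nearest to Acta2 were Tirap (0.165), Nova1 (0.236), Cd55 (0.238), Myh11 (0.248) and Camk1d (0.253). Nearest to Myh11 were Ciao2a (0.112), Pcdh18 (0.133), Pdzd2 (0.142), Spop (0.143) and Hacd3 (0.147). Nearest to Rgs5 were Rgs4 (0.074), another regulator of G protein signalling, Slc38a6 (0.10), Tmem160 (0.102), Fli1 (0.105) and Ptprb (0.111).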
